A study of Mus musculus with 12 samples.

Results

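Described here are 10 genes of bile acid and oxysterol metabolism: the enzyme genes Cyp7a1, Cyp8b1, Cyp7b1, Cyp27a1, Cyp39a1, Hsd3b7 and Akr1d1, the nuclear receptor gene Nr0b2, and the transporter genes Abcb11 and Slc10a1. They were chosen by pathway, as 10 of the 20262 genes that the platform annotations name, and every probe set annotated to one of them alone was used. On the array used for liver and macrophages these were 10 probe sets of 35557, 1 for each gene. On the array used for aorta they were 14 probe sets of 22690, covering all 10 genes.

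The study compared mice that lack Prkch, which encodes the eta form of protein kinase C, together with Apoe (Prkch-/-Apoe-/-, called knockout below) with mice that lack Apoe only (Apoe-/-, called control), so every group lacked Apoe. All were on the C57BL/6J background. The livers were from re-fed males of 20 weeks that had eaten a high-fat diet for 12 weeks, with 2 knockout and 2 control arrays. The macrophages had been drawn to the peritoneum with thioglycolate and were left unstimulated; they came from females on regular diet, with 3 knockout and 3 control arrays, and in each genotype replicates 1, 2 and 3 were aged 18, 17 and 27 weeks. The aortas were from fed males of the same age and diet as the livers, with 1 array per genotype, each of RNA mixed from 4 mice. Which part of Prkch was removed is not given in the labels.

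Hepatocytes convert cholesterol to bile acids by a classic pathway that starts at the sterol ring and by an alternative pathway that starts with oxysterols, cholesterol molecules oxidised on the side chain. Bile acids are pumped into bile, taken back up from portal blood, and reduce their own synthesis through the nuclear receptor FXR (gene Nr1h4), which induces Nr0b2, a repressor of Cyp7a1 and Cyp8b1. Macrophages and other cells outside the liver also use some of these enzymes, to make oxysterols and to break down those that guide lymphocytes.

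The labelled tissues were checked by their marker genes. Mean levels of 8 hepatocyte markers were between 13.32 and 13.40 log2 units in knockout livers and between 13.26 and 13.32 in control livers. Mean levels of 8 macrophage markers were between 12.25 and 12.59 in knockout macrophages and between 12.24 and 12.40 in control macrophages, where 4 of the 8 hepatocyte markers were too dim to be tested. In the aorta all 5 smooth muscle markers were above the filter on dim genes, as were 4 of 5 endothelial and 7 of 8 macrophage markers, against 0 of 8 hepatocyte markers. Also above it were 3 of the 4 adipocyte markers with a probe set there, at percentiles of 93.2 to 100. The smooth muscle markers lay at percentiles of 81.7 to 99.7. The part of fat in the aorta values was not tested. Of the Prkch probe sets, the brighter had levels of 5.93 and 5.65 in knockout livers against 6.57 and 6.87 in control livers, a difference of -0.92 that did not pass the test (limma with Benjamini-Hochberg adjustment, adjusted p = 0.573). The dimmer one read 3.94 and 4.21 in knockout livers against 4.08 and 4.04 in control livers. These values lay below the liver filter on dim genes, at 4.87 log2 units, so they cannot check the genotype there. Whether either probe set covers the deleted stretch of Prkch was not tested. In macrophages the brighter one read 9.36, 8.79 and 8.87 in knockouts against 9.94, 9.86 and 9.31 in controls. These groups overlapped, with a difference of -0.70 (adjusted p = 1.00, limma). Within each of the 2 batches of macrophage arrays described below knockouts were lower, with differences of -0.54 in batch 1 and -0.49 in batch 2. The brighter one lay at percentiles of 79.3 to 84.4 among all probe sets of the knockout macrophage arrays. The dimmer one read 6.85, 6.62 and 6.62 in knockout macrophages against 7.06, 7.14 and 6.85 in control macrophages. Its differences were -0.25 in batch 1 and -0.22 in batch 2. In the aorta Prkch had a signal of 9.94 in the knockout pool and 17.2 in the control pool, both dim.

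In liver, none of the 10 genes passed the test between genotypes. The nearest was Cyp39a1, an oxysterol hydroxylase, which was 2.08-fold higher in knockout livers. The largest difference in the other direction was in Cyp8b1, the enzyme that sets the proportion of cholic acid, but it came from 1 knockout liver. Cyp7a1, the rate-limiting enzyme of the classic pathway, differed by less than the spread between livers of one genotype. Calls were made in limma over 15942 genes where the p after Benjamini-Hochberg adjustment was under 0.05, and under that rule 0 of the 10 were called against 0.00627% of all genes tested, which is 1 gene. That 1 gene was Idi1, an enzyme of cholesterol synthesis named here after its value was seen, with a difference of 1.79 (adjusted p = 0.0463, limma).

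**Figure D1:**
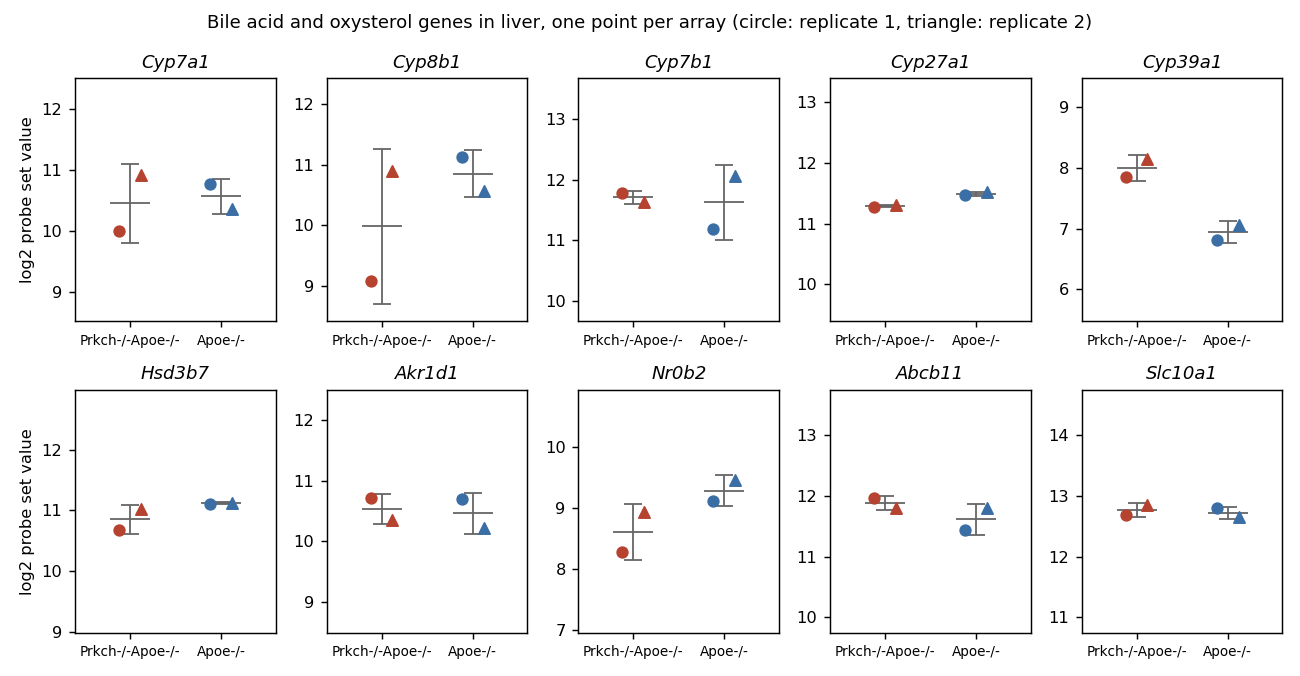
Each panel shows 1 gene in liver on the log2 scale of the deposited probe set values, with 1 point per array (circle, replicate 1; triangle, replicate 2), the mean as a long bar and the SD as whiskers (n = 2 per genotype), knockout left and control right. In Cyp39a1 the genotypes are farther apart than the livers within them, whereas in Nr0b2 knockout replicate 2, though below both controls, is nearer to a control than to the other knockout. In Cyp8b1 and Cyp7a1 knockout replicate 1 alone lies below both controls.

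The classic pathway starts with Cyp7a1, which adds the first hydroxyl group to the sterol ring. Its log2 level was 9.99 and 10.91 in knockout livers and 10.77 and 10.36 in control livers. The groups overlapped, with one knockout liver below and the other above both controls, and the difference was -0.11 ± 0.28 (SE, n = 2 and 2; 95% interval -0.76 to 0.53; adjusted p = 1 by limma). Its value was 0.35 without knockout replicate 1 and 0.09 without control replicate 1, so its direction rested on single livers. The interval spans 0.590 to 1.45 times the control level, so a moderate change in either direction was not detectable with these arrays.

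Cyp8b1 follows on the classic branch and adds the hydroxyl group that distinguishes cholic acid. Its level was 9.09 and 10.89 in knockout livers and 11.13 and 10.58 in control livers. Knockout replicate 1 was far below the other livers, at 0.294 times the control mean, whereas knockout replicate 2 lay between the controls at 1.03 times their mean. The difference was -0.86 ± 0.49 (SE, n = 2 and 2; 95% interval -1.98 to 0.26; limma with Benjamini-Hochberg, adjusted p = 1), and without knockout replicate 1 it was 0.04. The gap of 1.81 between the knockout livers was the 18th largest of 15942 genes.

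Hsd3b7, the dehydrogenase that takes the sterols hydroxylated by either pathway to the next step, read 10.68 and 11.02 in knockout livers and 11.11 and 11.13 in control livers. Both knockout livers were below both controls, by -0.44 and -0.10 from the control mean, and the difference was -0.27 (95% interval -0.62 to 0.08). Akr1d1, the reductase that gives the ring its bent shape, read 10.71 and 10.35 in knockout livers and 10.70 and 10.22 in control livers. Its groups overlapped with a difference of 0.07 (95% interval -0.38 to 0.52), and the sign turned without knockout replicate 1 (-0.11) and without control replicate 2 (-0.17).

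The alternative pathway uses Cyp27a1, the mitochondrial enzyme that oxidises the cholesterol side chain. Its level was 11.28 and 11.30 in knockout livers and 11.47 and 11.52 in control livers. The groups did not overlap and the livers of each genotype were close together, with SDs of 0.02 in knockout and 0.03 in control livers, but the difference of -0.21 was small, 86.7% of control, and its 95% interval ran from -0.50 to 0.09. Cyp7b1, which hydroxylates the oxysterols made by Cyp27a1, read 11.78 and 11.63 in knockout livers and 11.19 and 12.06 in control livers. Here the control livers lay on either side of the knockouts, the difference was 0.08 (95% interval -0.50 to 0.66), and it was -0.35 without control replicate 1.

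Cyp39a1 is a microsomal hydroxylase of liver that prefers a side-chain oxysterol made in quantity by brain. It read 7.85 and 8.15 in knockout livers and 6.82 and 7.07 in control livers. Each knockout liver was above both control livers, by 0.91 and 1.20 over the control mean, and the livers of 1 genotype were 0.30 (knockout) and 0.25 (control) apart. The difference was 1.06 ± 0.16 (SE, n = 2 and 2; 95% interval 0.69 to 1.42), which ranked 23rd by size and 9th by p among 15942 genes. Its unadjusted p of 0.000154 became an adjusted p of 0.272 (limma with Benjamini-Hochberg), which does not pass, and differences of at least 1 in size were seen for 0.232% of the genes tested. Leaving out any 1 liver kept the difference between 0.91 and 1.20.

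The 3 genes whose levels across the 4 livers were most like Cyp39a1, by the root mean square distance of centred log2 values, were Gask1a, Rdh16f2 and Slco1a4. Gask1a read 7.06 and 7.26 in knockout livers and 6.13 and 6.03 in control livers, at a distance of 0.13. Rdh16f2, of a family of retinol and steroid dehydrogenases, read 10.13 and 10.03 in knockout livers and 9.12 and 9.11 in control livers, at a distance of 0.17. Slco1a4, a hepatic uptake transporter for organic anions including bile acids, read 9.01 and 9.34 in knockout livers and 8.42 and 8.41 in control livers, at a distance of 0.18. None of the 3 passed the test, with adjusted p of 0.192, 0.192 and 0.654 by limma, and likeness over 4 arrays is a description of these livers.

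Nr0b2 encodes the small heterodimer partner, a nuclear receptor without a DNA-binding domain that acts as a corepressor. It read 8.28 and 8.93 in knockout livers and 9.11 and 9.47 in control livers. Both knockout livers were below both controls, although knockout replicate 2 was nearer to control replicate 1 than to the other knockout. The difference was -0.68 ± 0.22 (SE, n = 2 and 2; 95% interval -1.20 to -0.17), or 62.3% of control, with an unadjusted p of 0.0155 and an adjusted p of 1 (limma with Benjamini-Hochberg), so it did not pass. From the control mean the knockout livers differed by -1.01 and -0.36.

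Among the transporters, Abcb11, the bile salt export pump of the canalicular membrane, read 11.96 and 11.80 in knockout livers and 11.43 and 11.80 in control livers. The groups were apart only by 0.0021 between knockout replicate 2 and control replicate 2, and the difference was 0.26 (95% interval -0.11 to 0.63). With control replicate 1 left out it was 0.08, and with control replicate 2 left out 0.45. Slc10a1, the sodium-dependent carrier that takes bile acids up from blood, read 12.69 and 12.86 in knockout livers and 12.79 and 12.65 in control livers. Its groups overlapped with a difference of 0.05, its 95% interval of -0.27 to 0.37 was among the narrowest of the 10, and the sign turned without knockout replicate 2 (-0.03) and without control replicate 2 (-0.02).

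**Figure D2:**
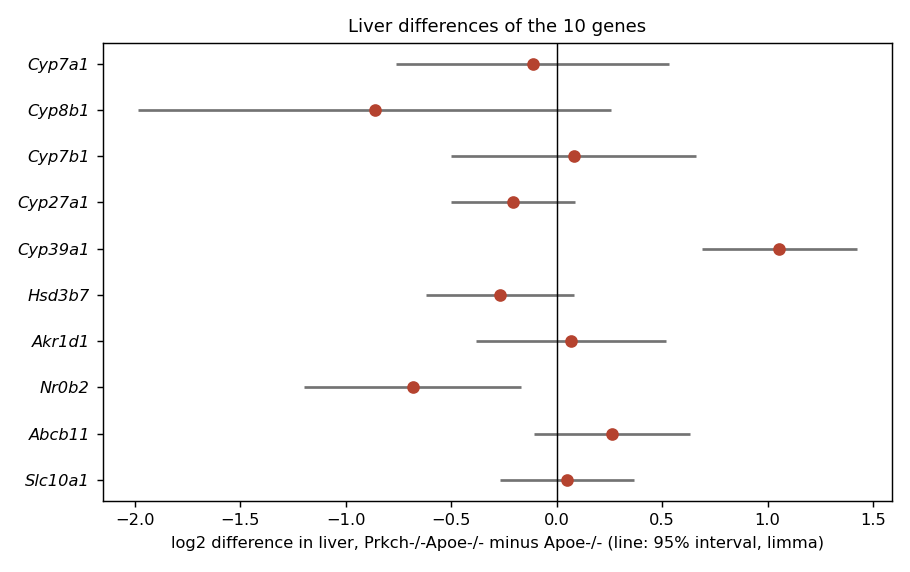
Points give the log2 difference in liver, knockout minus control, for each of the 10 genes, and lines the 95% interval of limma (n = 2 arrays per genotype). The intervals of Cyp39a1 (0.69 to 1.42) and Nr0b2 (-1.20 to -0.17) leave out 0, before adjustment for the 15942 genes tested, and the widest is that of Cyp8b1 (-1.98 to 0.26).

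Over all 10 genes the liver differences ran from -0.86 to 1.06 with a median of -0.03, beside a median of -0.02 over all genes tested. At an unadjusted p under 0.05, 1 gene was higher (Cyp39a1) and 1 lower (Nr0b2), against 1.54% and 2.75% of all genes and 4.29% in either direction. Without overlap between genotypes, 2 genes were higher (Cyp39a1 and Abcb11) and 3 lower (Cyp27a1, Hsd3b7 and Nr0b2), against 11.8% higher and 18% lower among all genes. With 2 arrays per genotype such separation is common, and 5 of 10 stands beside 29.8% in either direction.

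The promoters of 7 of the 10 genes were in the RefSeq table used (GRCm38.p6), which had none for Cyp7a1, Cyp7b1 and Cyp39a1. Cyp8b1, Nr0b2 and Abcb11 are shown because they are members on which the feedback by bile acids is known to act. Each sequence is the 250 bases before the transcription start on the gene's own strand, 5′ to 3′, with matches to the searched motifs in capitals.
Cyp8b1 (chr9:121916306-121916555, minus strand): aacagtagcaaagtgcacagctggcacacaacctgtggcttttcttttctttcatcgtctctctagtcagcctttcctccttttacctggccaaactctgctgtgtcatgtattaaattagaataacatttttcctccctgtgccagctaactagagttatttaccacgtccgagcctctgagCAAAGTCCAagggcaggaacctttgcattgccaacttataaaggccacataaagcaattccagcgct
Nr0b2 (chr4:133553126-133553375, plus strand): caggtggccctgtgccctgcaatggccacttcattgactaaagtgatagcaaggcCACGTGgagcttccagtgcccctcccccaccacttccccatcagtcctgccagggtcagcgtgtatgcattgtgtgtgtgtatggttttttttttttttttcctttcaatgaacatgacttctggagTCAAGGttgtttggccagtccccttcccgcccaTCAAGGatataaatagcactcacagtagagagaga
Abcb11 (chr2:69342617-69342866, minus strand): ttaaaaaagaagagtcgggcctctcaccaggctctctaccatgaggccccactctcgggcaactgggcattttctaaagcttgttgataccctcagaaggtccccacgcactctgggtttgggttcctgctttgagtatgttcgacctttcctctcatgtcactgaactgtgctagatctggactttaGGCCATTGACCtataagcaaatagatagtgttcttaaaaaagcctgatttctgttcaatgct

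Both strands were searched for 4 motifs, and positions count back from -1, the base before the start. The Cyp8b1 promoter held CAAAGTCCA, a motif that HNF4A prefers over other nuclear receptors, at -67 to -59, as 0.384% of 32851 promoters did. In the Nr0b2 promoter TCAAGG, a form of the core of sites bound by the receptor NR5A2, matched at -68 to -63 and at -35 to -30. At least 1 such match was held by 12.5% of all promoters, and other forms of that core were not searched in any promoter. The Nr0b2 promoter also held the E-box CACGTG at -195 to -190, as did 6.02% of promoters. That E-box reads alike on both strands and is bound by clock factors among others. The Abcb11 promoter held GGCCATTGACC at -62 to -52, a match to GGNCA followed by any 1 base and TGNCC, which approximates the inverted repeat bound by FXR and was found in 0.575% of promoters. Akr1d1 had 1 TCAAGG on the opposite strand at -213 to -208, and the windows of Cyp27a1, Hsd3b7 and Slc10a1 had no match to any of the 4 motifs. A match describes letters only and shows no binding in these livers.

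No gene of the other pathway lists was called in liver. Of 10 genes for side chain shortening and conjugation, all were tested and 0 were higher and 2 lower without overlap, beside 11.8% and 18% of all genes, with a median difference of -0.08 beside -0.02 over all genes. The 4 with the smallest p were Acot8 (-0.32), Cyp2c70, which makes the muricholic acids of mice (0.32), Hsd17b4 (-0.24) and Slc27a2 (-0.10). Of 14 genes of bile acid and sterol transport 12 were tested, and 2 were higher and 6 lower without overlap, beside 11.8% and 18% of all genes, with a median of -0.15.

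In that transport list both knockout livers lay above both controls for the uptake carriers Slco1a4 and Slco1a1. They lay below both controls for Abcc2, Abcc3, Abcc4, Abcg5 and Abcg8, and for Slco1b2, also an uptake carrier, which differed by -0.09. Slco1a4 differed by 0.76, with an adjusted p of 0.654 (limma with Benjamini-Hochberg). Slco1a1 read 11.48 and 11.25 in knockout livers and 10.79 and 10.92 in control livers, a difference of 0.51 with an adjusted p of 0.989 (limma). Abcc3, which exports conjugates back to blood, read 9.91 and 10.63 in knockout livers and 11.11 and 10.93 in control livers, a difference of -0.75. Abcg8, one subunit of the biliary sterol exporter, read 9.47 and 8.90 in knockout livers and 9.79 and 9.79 in control livers, a difference of -0.60. Its partner Abcg5 read 10.34 and 9.85 in knockout livers and 10.90 and 10.42 in control livers, a difference of -0.56. For these 3 exporters the adjusted p was 1 (limma), and Abcg5, Abcc2, Abcc4 and Slco1b2 were named after their values were seen.

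Among 16 regulators, 14 were tested, with 2 higher and 3 lower without overlap, near the shares of 11.8% and 18% among all genes, and a median of -0.07. Prox1, a corepressor of Cyp7a1, differed by 0.47, Nr1i2 (PXR) by -0.29, Hnf4a by -0.32 and Nr1i3 (CAR) by -0.34, all with an adjusted p of 1 (limma). Nr1h4, the bile acid receptor itself, read 9.67 and 9.78 in knockout livers and 9.90 and 9.42 in control livers, and differed by 0.07. Nr5a2, which activates Cyp8b1 and Nr0b2, differed by 0.12; Nr1h4 and Nr5a2 were named after their values were seen.

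Of 11 oxysterol genes 10 were tested in liver, with 3 higher and 2 lower without overlap (11.8% and 18% of all genes) and a median of -0.10. Insig1, which holds the sterol sensor SCAP in the endoplasmic reticulum, read 11.84 and 11.16 in knockout livers and 10.57 and 10.70 in control livers, a difference of 0.87 (limma with Benjamini-Hochberg, adjusted p = 0.832). The next were Hsd11b1 (0.27), Npc2 (-0.23) and Cyp46a1 (-0.21), whose product is the oxysterol that Cyp39a1 prefers.

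**Figure D3:**
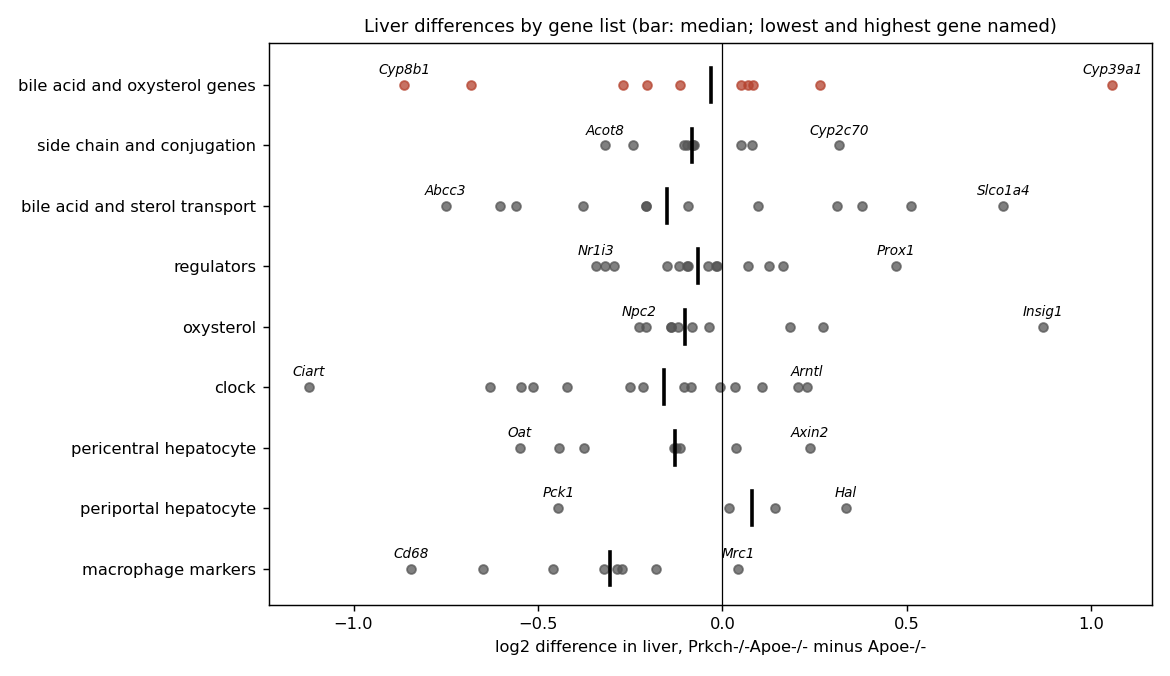
Each point is the log2 difference of 1 gene in liver, knockout minus control, for 9 of the lists (each row), and the black bar is the list's median; the genes at either end are named. The medians of these 9 lie between -0.30 for macrophage markers and 0.08 for periportal genes, and no gene shown passed the test over all genes.

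The levels of other cell type and zonation genes are given beside these values, and their part in them was not tested. Of 8 macrophage markers 0 were higher and 5 lower without overlap, against 11.8% and 18% of all genes, with a median of -0.30, and their mean level was 8.49 to 8.70 in knockout livers and 8.80 to 9.13 in control livers. Cd68 differed by -0.84 (adjusted p = 0.712, limma), Lyz2 by -0.65, C1qa by -0.46 and Itgam by -0.32, none past the test. The rest of that list were Adgre1 (-0.29), Msr1 (-0.27), Csf1r (-0.18) and Mrc1 (0.04), all but Adgre1 with overlap. In whole tissue, fewer cells of a type and less RNA per cell cannot be told apart. The 5 Kupffer cell markers, those of the resident macrophages of liver, all had differences below 0, with a median of -0.62 and 1 separated without overlap. Cd5l differed by -0.62 (adjusted p = 0.753, limma), Vsig4 by -0.76, Timd4 by -0.64 and Marco by -0.41. Their mean level was 8.34 to 9.37 in knockout livers and 9.12 to 9.63 in control livers. Only in Cd5l did both knockouts lie below both controls. In Vsig4, Timd4 and Marco knockout replicate 1 (10.36, 8.04 and 7.63) lay among the controls while replicate 2 (8.87, 6.25 and 6.50) lay below them. Clec4f differed by -0.19, with knockout replicate 1 (9.83) level with the higher control and replicate 2 (9.09) below both controls. Hepatocyte markers had a median of 0.07, pericentral genes -0.13 and periportal genes 0.08. Without overlap, 5 of 8 hepatocyte markers were higher and 0 lower, with differences of -0.01 to 0.16. For pericentral genes 1 of 8 was higher and 4 lower, and for periportal genes 2 of 4 were higher and 0 lower. Among all genes 11.8% were higher and 18% lower. Among the pericentral genes Oat differed by -0.55, Rhbg by -0.44, Lgr5 by -0.37 and Axin2 by 0.24, and among the periportal genes Pck1 by -0.44, Hal by 0.33, Cyp2f2 by 0.14 and Hsd17b13 by 0.02.

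The sex-biased lists of liver, of interest because several of these enzymes differ between the sexes in mice, had medians of 0.14 (male-biased, 9 of 9 tested) and -0.03 (female-biased, 3 of 10 tested). Cyp4a12b differed by -0.60, Cyp4a12a by -0.52, Selenbp2 by 0.48 and Cyp2d9 by -0.19, none past the test. Cyp17a1 read 6.94 and 9.17 in knockout livers and 6.88 and 7.12 in control livers, so that knockout replicate 2 alone stood out. Moxd1, of the male-biased list and named after its values were seen, read 9.39 and 6.06 in knockout livers and 6.15 and 7.21 in control livers. In Moxd1 it was knockout replicate 1 that stood out. The 4 cholangiocyte markers tested had a median of 0.01.

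Livers of 1 genotype differed in the clock genes, which set the daily rhythm of Cyp7a1 and other members. The livers with the same number are not linked by the labels. Replicate 2 minus replicate 1 had the same sign in both genotypes for 5 of the 10 bile acid and oxysterol genes and for 12 of 14 clock genes (85.7%), against 52.5% of all 15942 genes. The median size of that gap among the 10 genes was 0.32 between the knockout livers and 0.36 between the control livers. Among clock genes it was 0.56 between the knockouts and 0.46 between the controls, and over all genes 0.17 between the knockouts and 0.13 between the controls. Large gaps were not particular to the clock list. They were 1.14 between the knockouts and 0.48 between the controls for Kupffer cell markers, and 0.52 and 0.25 for male-biased genes. Hepatocyte markers had 0.05 and 0.04.

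Nr1d1, a repressor of the clock loop, had a gap of 1.53 between the knockout livers and 0.78 between the controls, and its activators Arntl and Clock had gaps of 0.93 and 0.83 between the knockouts and of 0.64 and 0.49 between the controls. Dbp, an activator of Cyp7a1, had gaps of -0.57 between the knockouts and -0.81 between the controls; these clock genes were named after their values were seen. Cyp8b1 and Cyp7a1 went opposite ways in the genotypes, with gaps of 1.81 and 0.92 between the knockout livers against -0.55 and -0.41 between the controls. Nr0b2 had gaps of 0.65 between the knockouts and 0.36 between the controls, Akr1d1 of -0.35 between the knockouts and -0.48 between the controls, and Cyp7b1 of -0.15 between the knockouts and 0.86 between the controls.

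**Figure D4:**
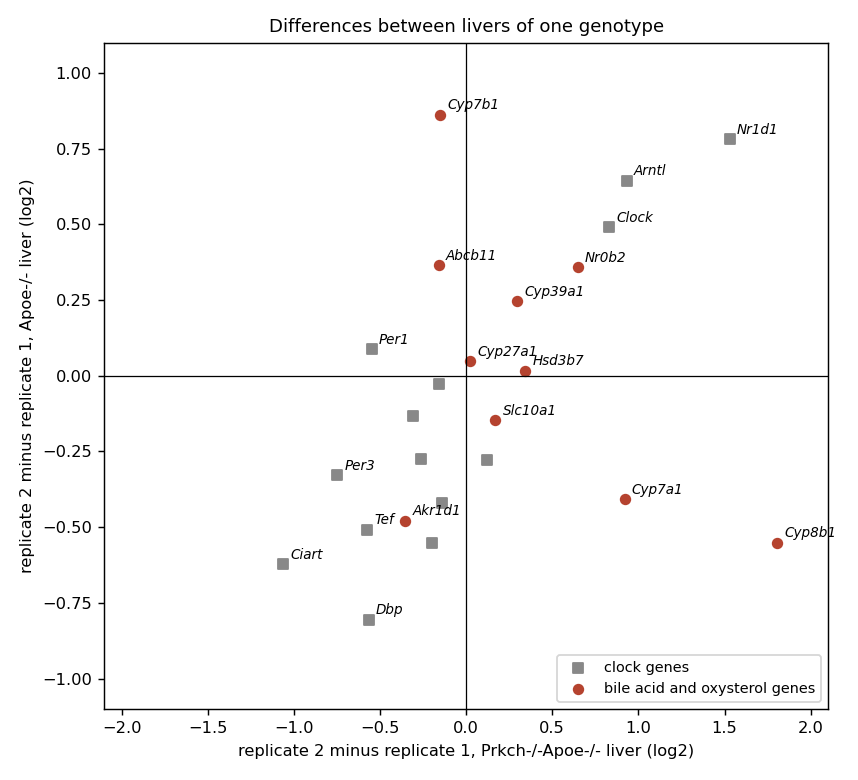
The x axis gives the log2 difference of replicate 2 minus replicate 1 between the knockout livers and the y axis the same between the control livers, for the 10 bile acid and oxysterol genes (circles) and 14 clock genes (squares). Of the clock genes, 12 lie in the quadrants of like sign, whereas Cyp8b1 (1.81 and -0.55) and Cyp7a1 (0.92 and -0.41) lie in a quadrant of opposite sign.

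Between genotypes the clock list had a median of -0.16, with 0 of 14 called and 0 higher and 4 lower without overlap, where all genes had 11.8% higher and 18% lower. Ciart read 7.31 and 6.24 in knockout livers and 8.21 and 7.58 in control livers, a difference of -1.12 (adjusted p = 1, limma). Per1 differed by -0.55, Bhlhe41 by -0.42 and Nr1d2 by -0.25. The hour of sampling is not given in the labels, and its part in the values of Cyp7a1, Cyp8b1 and Nr0b2 was not tested.

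In elicited macrophages, 3 of the 10 genes were above the filter on dim genes: Hsd3b7, Cyp27a1 and Cyp39a1. None was called, as was no gene of the 15039 tested (0%), and 105 genes or 0.698% had an unadjusted p under 0.05. The deposited values of these arrays fell into 2 sets, called batches here and not named in the labels, that share exactly tied values. Knockout replicates 2 and 3 and control replicate 3 shared 16075 or more of 35557 values in each pair, whereas pairs among knockout replicate 1 and control replicates 1 and 2 shared 69 or fewer, and pairs across the batches shared 3 or fewer. Values are therefore given also within batch 1 (knockout replicate 1, control replicates 1 and 2) and within batch 2 (the other 3 arrays).

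Cyp27a1, whose product in macrophages can leave the cell and reach the liver, read 9.35, 9.19 and 9.19 in knockout macrophages and 9.41, 9.17 and 9.19 in control macrophages. The groups overlapped with a difference of -0.02 (95% interval -0.26 to 0.22; adjusted p = 1.00, limma), and the sign turned to 0.01 without knockout replicate 2 or 3 and to 0.06 without control replicate 1. Within batch 1 the difference was 0.05, and within batch 2 it was 0, since the 3 values there are identical. With the batch as a block it was 0.03.

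Hsd3b7, which in immune tissue also degrades the oxysterol ligand of the lymphocyte receptor Gpr183, read 9.80, 9.56 and 9.80 in knockout macrophages and 9.83, 9.94 and 9.83 in control macrophages. All knockouts were below all controls, with knockout replicates 1 and 3 close to control replicates 1 and 3, and 1.6% of genes tested were separated in this direction. The difference was -0.14 (95% interval -0.37 to 0.09; adjusted p = 1.00, limma), and it was -0.09 within batch 1 and -0.14 within batch 2. Without knockout replicate 2 it was -0.07. That array also had the highest level of 3 B cell markers, with a mean of 10.02 in a range of 7.18 to 10.02 over the knockout arrays and of 7.23 to 8.67 over the control arrays, and the part of this in the value was not tested.

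Cyp39a1 read 5.90, 6.50 and 6.22 in knockout macrophages and 6.06, 6.00 and 6.29 in control macrophages. Its groups overlapped fully, with a difference of 0.09 (95% interval -0.31 to 0.49; adjusted p = 1.00, limma). It was -0.13 within batch 1, 0.07 within batch 2, -0.03 with the batch as a block and -0.05 without knockout replicate 2. The macrophage difference minus the liver difference was -0.96 ± 0.26 (SE, 10 arrays), with an unadjusted p of 0.0037 and an adjusted p of 1.00 over 16363 genes (limma with Benjamini-Hochberg), so a difference between the tissues was not shown; 2.11% of genes had an unadjusted p under 0.05 in this contrast. For Cyp27a1 the same contrast was 0.19 and for Hsd3b7 0.13, and neither was called, as was no gene tested (0%). The remaining genes were kept in that fit only through their liver level, so no test is given for them.

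The remaining 7 genes were below the filter in macrophages. Cyp7b1, which inactivates oxysterol ligands outside the liver, read 5.81, 4.91 and 4.91 in knockout macrophages and 6.15, 5.61 and 5.50 in control macrophages. In a fit without the filter it differed by -0.54, by -0.07 within batch 1 and by -0.59 within batch 2. The knockout values within batch 2 are exactly tied at 4.91, so they are not separate readings. The other 6 differed by -0.28 (Nr0b2) to 0.18 (Cyp7a1) in that fit, and within batch 2 the differences of Cyp8b1, Nr0b2, Abcb11 and Slc10a1 were exactly 0 because the values are tied. Of the 11 oxysterol genes 9 were tested in macrophages, with 0 called and a median of 0.02 beside -0.04 over all genes. Gpr183 differed by 0.23, Npc2 by -0.23, Sult2b1 by -0.12 and Cyp46a1 by 0.08.

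The level in liver was set against that in macrophages on the same probe set, after each array's median was subtracted, for the 3 genes above the filter in both. The difference, liver minus macrophages, was 2.91 log2 units for Cyp27a1, 2.08 for Cyp39a1 and 1.96 for Hsd3b7. All 3 passed the test, with adjusted p up to 6.1e-07 for Cyp39a1 (limma with Benjamini-Hochberg), as 35.8% of 16363 genes did in this direction and 38.3% in the other. With the deposited values and no median subtracted, the differences were 2.14 for Cyp27a1, 1.31 for Cyp39a1 and 1.19 for Hsd3b7. The other 7 genes were kept in that fit only through their liver level, so no test is given for them. Slc10a1 read 12.65 to 12.86 in livers and 5.14 to 5.27 in macrophages, Cyp7a1 9.99 to 10.91 in livers and 3.92 to 4.46 in macrophages, and Nr0b2 8.28 to 9.47 in livers and 5.28 to 5.96 in macrophages. For Cyp8b1, Cyp7b1, Akr1d1 and Abcb11, too, every liver value was above every macrophage value. Liver and macrophages also differed in sex, diet and age, so these cannot be told apart from the tissue.

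Within the arrays of a tissue, each gene also had a place among all probe sets. Hsd3b7 lay between the 96.5th and 97.5th percentile in liver and between the 86.9th and 89.4th in macrophages. Cyp27a1 lay between 97.7 and 98.1 in liver and between 82.7 and 84.9 in macrophages. Cyp39a1 lay at 79.7 and 82.2 in knockout livers, at 65.4 and 69.2 in control livers and between 31.5 and 47.7 in macrophages. Slc10a1 lay between 99.4 and 99.5 in liver and between 18.5 and 20.6 in macrophages, and Cyp7a1 between 94.2 and 97.0 in liver and between 6.92 and 11.9 in macrophages.

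**Figure D5:**
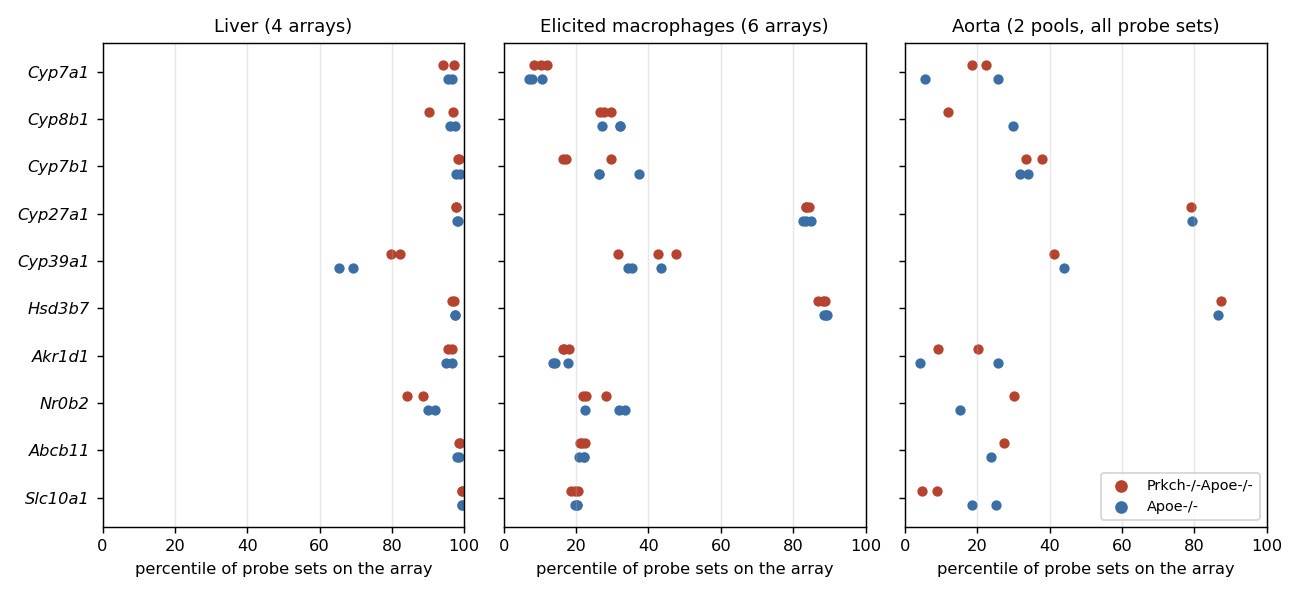
The x axis of each panel is the percentile of a probe set among all on its array, for the 10 genes in liver (4 arrays), elicited macrophages (6 arrays) and aorta (2 pools, all probe sets), knockout above control. Hsd3b7 and Cyp27a1 lie at or above percentile 79.1 in all 3 tissues, and the genotypes stand apart visibly for Cyp39a1 in liver.

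In the aorta, Hsd3b7 and Cyp27a1 were again above the filter on dim genes, a signal of 32.6 on the brighter array, and the other 8 genes were not. Hsd3b7 had a signal of 236.2 in the knockout pool and 231.9 in the control pool, a difference of 0.02 on the log2(signal + 16) scale. Cyp27a1 had 132.5 in the knockout pool and 135.4 in the control pool, a difference of -0.03. With 1 array per genotype there is no replicate check and no test. Neither gene reached 2-fold, which 0.873% of 7098 genes did upward and 0.394% downward.

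The dim genes of the aorta included Cyp39a1, with 18.2 in the knockout pool and 19.3 in the control pool. Cyp7b1 had 15.1 and 11.5 on its probe sets in the knockout pool and 10.2 and 8.88 in the control pool. For Cyp7a1, Cyp8b1, Akr1d1, Nr0b2, Abcb11 and Slc10a1 all signals were between 0.442 and 9.51, and no fold is given for them. Nr0b2 was at 9.51 in the knockout pool and 2.58 in the control pool, and Cyp8b1 at 2.13 in the knockout pool and 7.80 in the control pool. Of 9 oxysterol genes on this array 7 were above the filter, and the median difference was 0.07.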

How the data were processed

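Per the labels' protocols, biotin-labelled targets from total RNA were hybridised to Affymetrix Mouse Gene 1.0 ST arrays (liver, macrophages) and Mouse Genome 430A 2.0 arrays (aorta). The submitters' processing notes name Affymetrix Expression Console as the authors' software, with its version and algorithm not given in the sources used here. From the deposited liver and macrophage files, values were read as log2 summaries of probe sets, and the deposited aorta values as linear intensity (signal), in both cases from their ranges. Genes were named from the platform annotation, only where a probe set has 1 symbol, with the brightest probe set per gene.

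Genes with a mean below the 30th percentile of probe sets were left out, at 4.87 log2 units in liver and 5.74 in macrophages. In the aorta the brighter array had to reach the median. Each tissue was fitted alone with limma 3.58.1 (lmFit, eBayes; R 4.3.3) with no covariate, and all 10 liver and macrophage arrays together for the tissue contrasts, with Benjamini-Hochberg adjustment over all genes. The scripts were tested on simulated data. Array medians were 5.88 to 5.93 in liver and 6.57 to 6.77 in macrophages. The number of arrays limits the precision, and p-values measure the spread between arrays labelled as biological replicates. For macrophages, and where both tissues were fitted together, that spread also holds the exactly tied values described above. The p-values and intervals of those fits therefore do not measure biological spread alone.

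The named genes are the 10 members, Prkch, up to 4 genes per list with the smallest p, and the 3 genes most like the member with the largest difference in liver. Members, lists and motifs were chosen with earlier results of these data known. Normalization, scaling, filter, probe set rule, variance prior, replicate number, batch and single arrays were varied.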

Additional observations from a re-analysis of the deposited data

How the results depend on the processing

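Of the 10 genes, 0 were called in liver under 11 of 12 alternatives, and Cyp27a1, Cyp39a1, Hsd3b7, Nr0b2 and Abcb11 kept their liver direction in all 12. The number of all liver genes called was 1, and it was 0 with quantile normalization, with no filter, with all 10 arrays in 1 fit and with a trended prior; with single livers left out it ran from 0 to 36, and 36 came without knockout replicate 2 (0 without each of the others). With the replicate number as a block, 23 liver genes were called and 1 of the 10, Cyp39a1 (1.06, adjusted p = 0.0122 by limma). The block changed no other call among the 10 genes. The numbers do not pair the samples by the labels, although same-numbered macrophage arrays share an age, and deviations of same-numbered arrays correlated at 0.11 in liver and at 0.40, 0.03 and 0.50 in macrophages. The adjusted p of Cyp39a1 ran from 0.0122 to 0.545 and that of Nr0b2 from 0.118 to 1 over the alternatives (limma). No macrophage gene was called under any of 15 alternatives, and Cyp27a1, Cyp39a1 and Hsd3b7, the genes above the filter in both tissues, were higher in liver than in macrophages under each of 14.

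With 1 liver left out, the differences that turned sign ran from -0.57 to 0.35 for Cyp7a1, from -1.77 to 0.041 for Cyp8b1, from -0.35 to 0.51 for Cyp7b1, from -0.17 to 0.31 for Akr1d1 and from -0.034 to 0.13 for Slc10a1. In macrophages Cyp27a1 turned to 0.0095 with quantile normalization, to 0.015 with medians subtracted and to 0.027 with the batch as a block, and ran from -0.069 to 0.060 with 1 array left out; Cyp39a1 turned to -0.027 with the batch as a block and ran from -0.054 to 0.25. Macrophage minus liver differences with 1 array left out ran from -0.17 to 0.75 for Cyp7a1, from -0.19 to 1.61 for Cyp8b1, from -0.046 to 0.30 for Hsd3b7 and from -0.18 to 0.30 for Akr1d1, and 0 to 1 genes were called (1 without knockout liver replicate 2). Of these genes, Cyp7a1, Cyp8b1 and Akr1d1 were in that fit only through their liver level. Divided by the array medians, the aorta differences were -0.13 for Cyp27a1 and -0.08 for Hsd3b7. In the aorta 0 of the 10 genes passed the fold threshold under 5 alternatives, 1 of which lowered that threshold. Cyp39a1 has no macrophage value with the stricter filter, which removes it. The cause of these changes was not tested, apart from the single arrays that were left out.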

Other observations

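In the aorta, 1 of the oxysterol genes above the filter was past 2-fold. Star, which carries cholesterol into mitochondria for steroid synthesis, had signals of 145, 302 and 138 on its 3 probe sets in the knockout pool against 6.14, 15.3 and 0.937 in the control pool, differences of 2.87, 3.34 and 3.18 on the log2(signal + 16) scale. Among the regulators Ppargc1a, a coactivator of mitochondrial genes, had 91.8 in the knockout pool and 228 in the control pool, a difference of -1.18. In the same knockout pool the B cell markers Ms4a1 and Cd79b had signals of 453 and 162, against 49.9 and 29.8 in the control pool, and Hao2, of the list of female-biased liver genes, had 113 against 2.24. The part of other cells in these values was not tested. All these genes were named after their values were seen, and pools of 4 mice on 1 array per genotype allow no test. In livers Star read 5.29 and 5.19 in knockouts and 5.03 and 5.08 in controls, and in macrophages 6.52, 6.29 and 6.29 in knockouts and 6.51, 6.25 and 6.29 in controls.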
